A study of Mus musculus with 2 samples.

Results

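Ras guanine nucleotide exchange factors were examined on arrays of pancreatic islets from adult mice labelled as lacking Zbtb20, a zinc finger transcription factor gene, in beta cells only, and from their littermate controls. The members were the genes Rasgrp1, Rasgrp2, Rasgrp3, Rasgrp4, Rasgrf1, Rasgrf2, Sos1 and Sos2, 8 of 18193 genes named on the arrays. They were chosen by name and function, with earlier results on the same 2 arrays known, and every probe set assigned to a single member was taken, 23 of 45037 in all. The control group was 1 array of wildtype islets and the other was 1 array of islets labelled b cell-specific ZBTB20 knockout. Both came from mice of mixed background aged 2 to 3 months. Islets were isolated with collagenase, picked by hand and kept in culture overnight before freezing. The Cre driver, the deleted part of the gene and the number of animals behind each array are not given in the sources used here.

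Ras proteins are small GTPases that signal while bound to GTP, and exchange factors switch them on by releasing GDP. The RasGRP proteins are recruited to membranes by diacylglycerol, the RasGRF proteins respond to calcium and calmodulin, and the SOS proteins are brought to activated receptor tyrosine kinases by the adaptor GRB2. In beta cells, glucose and incretin hormones activate the downstream kinase ERK in a calcium-dependent way, and RasGRF1 is known for a role in beta cell mass.

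Values are MAS5 signals, linear intensities that summarise the probes of a probe set. In what follows the control signal is always given first and the signal of the knockout-labelled array second. A floor was set at the median of each array, 21.6 and 21.7, and weaker signals were replaced by it when ratios were formed. A ratio with 1 array under the floor is a bound written as "at least", and a probe set under the floor on both arrays has no ratio. Of the 23 member probe sets, 12 were above the floor on both arrays, 3 on 1 array and 8 on neither. With 1 array per group there is no replicate error, no p-value and no standard error, and every ratio compares 2 RNA preparations. The members were chosen from the same 2 arrays, so all their ratios are a description. The only guide to measurement error was the spread among probe sets of 1 gene, with a median SD of 0.21 in log2 ratio over 4729 genes, which leaves out all variation between animals. Signals of different probe sets depend on their probes, so levels are not compared between genes. Where signals of several marker genes are summed, the brightest probe sets weigh most, and each sum is compared only between the 2 arrays.

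Rasgrp1 was higher in the knockout-labelled islets in all 4 of its probe sets, and Rasgrf2 was lower in both of its probe sets that gave a ratio. The other members with a ratio, Rasgrp2, Rasgrp3, Rasgrf1, Sos1 and Sos2, did not reach 2-fold, and Rasgrp4 was under the floor on both arrays. Counted by the brightest probe set of each gene, 7 of the 8 members had a ratio. Of these, Rasgrp1 alone was 2-fold higher or more, as were 1.82% of all 11823 measured genes. Rasgrf2 alone was 2-fold lower or more, as were 1.44% of all. The median log2 ratio of the 7 was -0.029, against 0.00039 for all measured genes. Because the choice of members used this contrast, nothing is read from these counts.

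The upstream sequences of the members past 2-fold, Rasgrp1 and Rasgrf2, are shown because these are the genes whose signals differed most between the arrays. They are the 250 bases before the start site in RefSeq on GRCm38.p6, written 5′ to 3′ on the gene's strand, with each CG dinucleotide in capitals.
Rasgrp1, chr2:117342878-117343127, minus strand: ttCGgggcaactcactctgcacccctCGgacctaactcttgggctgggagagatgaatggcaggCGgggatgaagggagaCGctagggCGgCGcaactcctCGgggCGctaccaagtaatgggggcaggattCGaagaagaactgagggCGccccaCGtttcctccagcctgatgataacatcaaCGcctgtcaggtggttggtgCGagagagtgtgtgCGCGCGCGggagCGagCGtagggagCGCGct
Rasgrf2, chr13:92131829-92132078, minus strand: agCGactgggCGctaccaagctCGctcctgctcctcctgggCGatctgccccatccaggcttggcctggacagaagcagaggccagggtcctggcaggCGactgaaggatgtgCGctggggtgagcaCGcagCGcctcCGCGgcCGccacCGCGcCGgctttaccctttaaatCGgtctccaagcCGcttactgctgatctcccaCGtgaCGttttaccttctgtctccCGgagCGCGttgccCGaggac

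Both sequences were rich in CG, with 21 CG dinucleotides for Rasgrp1 and 22 for Rasgrf2, against a median of 6 over 32851 upstream sequences of the same length. Neither sequence held the TATA motif TATAAA on either strand, which 12.4% of all upstream sequences held. The GC box GGGCGG, searched on both strands, was found 1 time upstream of Rasgrp1 and 0 times upstream of Rasgrf2, and in 32.7% of all sequences. Upstream sequences were listed for 7 of the 8 members. Sos1 had 22 CG dinucleotides and Rasgrf1 had 21, while Sos2 had the most, 47, and the start sites of Rasgrp3 the fewest, 4 and 8. A CG-rich upstream region was thus found for members within 2-fold as well as for those past it. The arrays measured transcripts and not the activity of these regions.

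Among the RasGRP genes, Rasgrp1 encodes the exchange factor best known from T lymphocytes, where it couples the antigen receptor to Ras. Its brightest probe set, 1434295_at, gave signals of 72.8 and 452.5, a 6.22-fold higher value in the knockout-labelled islets (log2 ratio 2.64). Probe set 1450143_at gave signals of 31.5 and 141.7, 4.50-fold higher. Probe set 1421176_at gave 27.7 and 90.5, 3.27-fold higher. All 3 control signals were above the floor, but those of 31.5 and 27.7 only slightly. Weak signals may hold background, so the last 2 folds are less certain than that of 1434295_at. For 1431749_a_at the control signal of 10.0 was under the floor and the knockout-labelled signal was 115.1, which makes the value at least 5.33-fold higher. With the floor at the 70th percentile of each array, 67.0 and 68.6, the fold of 1434295_at was still 6.22, while the others became bounds of at least 2.11 (1450143_at), 1.35 (1421176_at) and 1.72 (1431749_a_at). Before any floor, the knockout-labelled signal was the higher one in all 4 probe sets. A bound with only that array above the floor is on the higher side by construction.

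At the median floor all 4 Rasgrp1 probe sets passed 2-fold, with 1431749_a_at measured only through the knockout-labelled array. Of 24533 measured probe sets, 1.86% passed 2-fold on the higher side. The 4 probe sets were read from the same RNA on the same arrays and are not replicates. Of 960 genes with at least 4 measured probe sets, bounds included, 4 had all of them at least 2-fold higher. These were Dbi, Rasgrp1, Tmem255a and Znrf2. Rasgrp1 is among the 960 only by its bound. It was chosen with this contrast known, so nothing is read from these counts. By its brightest probe set Rasgrp1 ranked 13 from the top among the 11823 measured genes, bounds included. Of 2279 measured genes with a mean log2 signal within 0.5 of that of Rasgrp1, the central 95% ran from -0.69 to 0.76 in log2 ratio. Of these, 2 genes, Rasgrp1 included, reached its ratio. Nothing is read from this rank or range either, for the same reason.

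**Figure D1:**
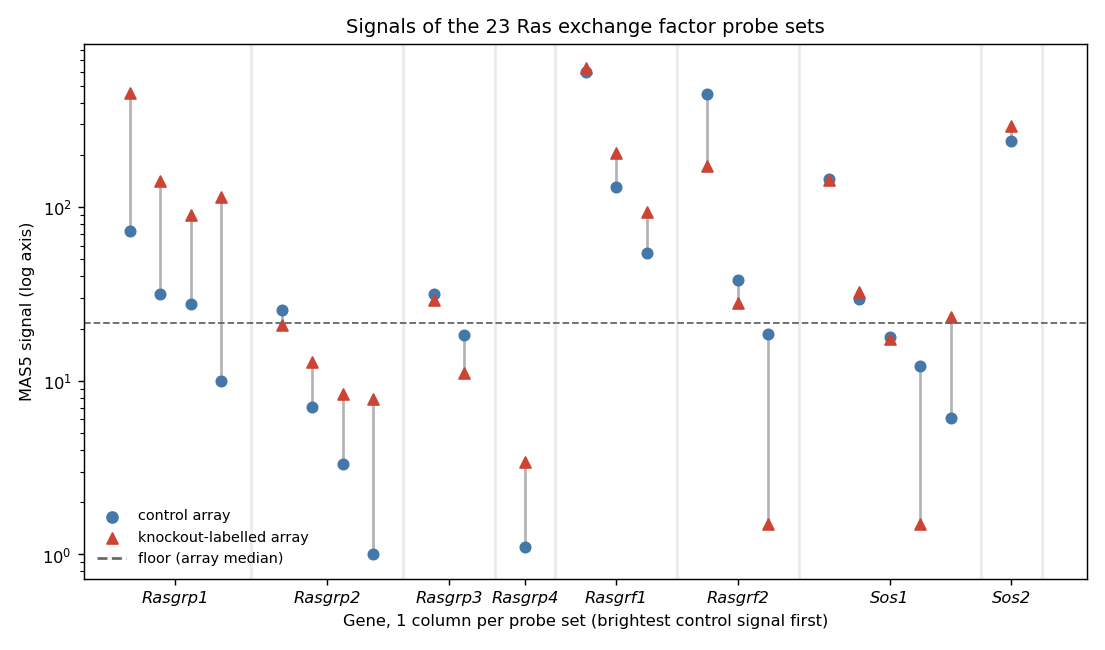
MAS5 signal (log axis) of each of the 23 member probe sets, grouped by gene, with a circle for the control array, a triangle for the knockout-labelled array and a dashed line at the floor. Each point is 1 array, with no error bar. All 4 Rasgrp1 probe sets have the triangle far above the circle, the brightest Rasgrf2 probe set has it below (451.2 and 173.1), and the Rasgrp2 and Rasgrp4 points lie near or under the floor.

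The other RasGRP genes were close to the floor or under it. Rasgrp2 encodes CalDAG-GEFI, which acts mainly on the related GTPase RAP1 and is known from platelets. Its brightest probe set, 1442264_at, gave signals of 25.5 and 21.0, at least 1.18-fold lower, and its 3 other probe sets lay between 1.0 and 12.8 on the arrays, all under the floor. Rasgrp3, known from B lymphocytes and endothelial cells, had signals of 31.5 and 29.3 in 1438030_at (log2 ratio -0.10), and 18.4 and 11.1, under the floor, in 1438031_at. Rasgrp4, known from mast cells, had a single probe set with signals of 1.1 and 3.4, under the floor on both arrays. Signals this weak may be background, as may the weaker Rasgrp1 control signals. Rasgrp1 was the only RasGRP gene with signals well above the floor in any probe set.

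The RasGRF genes went different ways. Rasgrf1, an imprinted gene expressed from the paternal allele in mouse brain, had its brightest probe set, 1424734_at, at 598.7 and 630.6 (log2 ratio 0.075). Its other probe sets were higher by more, from 130.8 to 204.9 in 1435614_s_at (1.57-fold) and from 54.3 to 93.5 in 1422600_at (1.72-fold). All 3 were on the higher side and none reached 2-fold, and the SD among them was 0.38 in log2 ratio. The value for Rasgrf1 therefore depended on the probe set, with a median of 0.65 over the 3.

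Rasgrf2 encodes the close relative of RasGRF1, likewise activated by calcium and calmodulin. Its brightest probe set, 1440849_at, gave signals of 451.2 and 173.1, 2.61-fold lower (log2 ratio -1.38). Probe set 1440918_at gave 37.9 and 28.2, a smaller difference in the same direction (log2 ratio -0.43). The last one, 1421621_at, was under the floor on both arrays, with signals of 18.6 and 1.5. Past 2-fold on the lower side was thus 1 of the 2 measured Rasgrf2 probe sets, against 1.29% of all measured probe sets. The SD between the 2 measured probe sets was 0.68, and their mean of -0.90 did not reach 2-fold. By its brightest probe set Rasgrf2 ranked 39 from the bottom among the measured genes. Of 1868 genes of similar signal (mean log2 signal within 0.5), the central 95% ran from -0.70 to 0.76. Of these, 7, Rasgrf2 included, were as low or lower. Rasgrf2 was chosen with this contrast known, so nothing is read from its rank or from this range.

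The SOS genes, which serve receptor tyrosine kinases in most cell types, were close to equal. Sos1 had signals of 146.1 and 143.2 in its brightest probe set, 1434389_at (log2 ratio -0.029). Another, 1421884_at, gave 29.6 and 32.5 (log2 ratio 0.13). Of the 3 weaker Sos1 probe sets, 1421885_at (17.8 and 17.5) and 1431311_at (12.1 and 1.5) were under the floor on both arrays, and 1421886_at, at 6.1 and 23.3, passed it only narrowly on the knockout-labelled array. Sos2 had a single probe set, 1452281_at, with signals of 240.7 and 295.0 (log2 ratio 0.29). Neither SOS gene had a probe set with a ratio or bound of 2-fold.

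**Figure D2:**
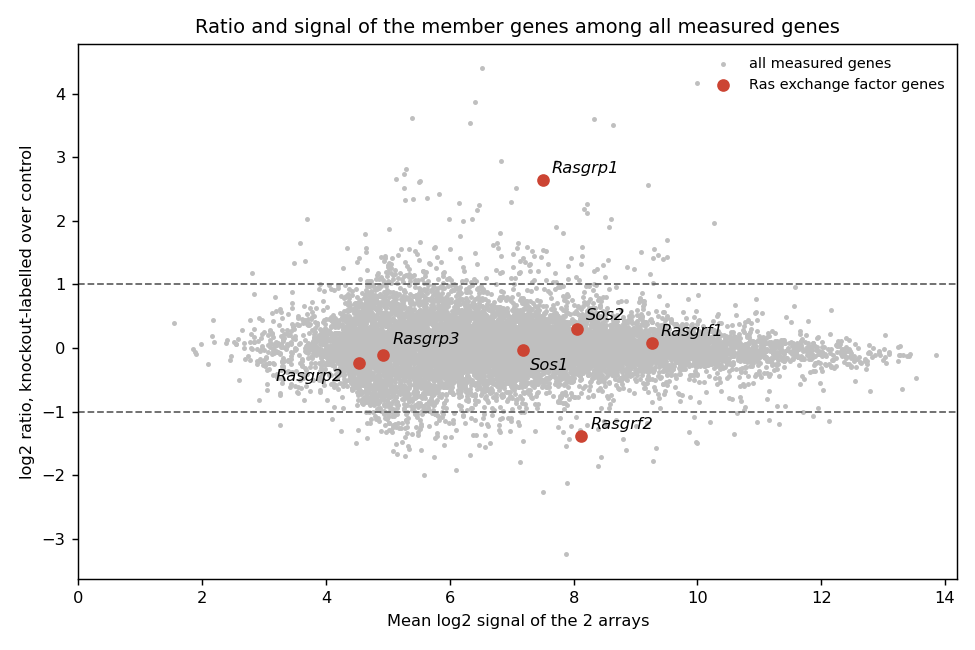
Log2 ratio of knockout-labelled over control signal against the mean log2 signal of the 2 arrays, for the brightest probe set of each of 11823 measured genes (grey) and of the 7 members with a ratio (red). Dashed lines mark 2-fold. Rasgrp1 lies at 2.64 and Rasgrf2 at -1.38, outside most genes of similar signal, and the other 5 members lie between the lines. The members were chosen with this contrast known, so their places are a description.

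The other genes of the pathway were taken from 10 lists with 111 genes. A single-gene probe set was found for 94 of them and a ratio for 75, of which 1 (1.33%) was higher by 2-fold or more and 1 (1.33%) lower by as much. Their median log2 ratio was -0.0049. These shares lie near those of all measured genes, 1.82% and 1.44%. Genes without a single-gene probe set in the annotation used, among them the calmodulin genes, were not analysed here.

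Of the GTPases that the exchange factors act on, 9 were measured, 5 above and 4 below a log2 ratio of 0 and none at 2-fold (median 0.061). Rap2b had a log2 ratio of 0.97 (65.0 and 127.4) and Rap2a one of 0.73. Both encode members of the RAP2 branch. The other measured Rap2b probe sets were 2.82-fold (47.1 and 133.0) and 1.38-fold higher, the first of them past 2-fold. Nras, a direct substrate of the RasGRP and SOS proteins, was at 129.1 and 136.0, and Rap1b at 3016.7 and 2988.4. The 6 measured Ras GTPase activating proteins, which switch Ras off, had a median of -0.21 and none at 2-fold. Rasa3 had a bound of -0.51, Dab2ip a log2 ratio of -0.33 and Rasal2 one of -0.33. The neurofibromin gene Nf1 was nearly equal, at 54.9 and 57.5.

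Other Ras and Rap exchange factors were above 0 in 9 of 11 measured genes, with a median log2 ratio of 0.21 and none at 2-fold. The highest of these exchange factors was Rasgef1b (0.92, from 49.0 to 92.4), followed by Rapgef1 (0.62) and Rapgef2 (0.59). Another Rapgef1 probe set lay on the other side, at -0.66. Rapgef5, at 0.16 in its brightest probe set, likewise had another at -0.75. Rapgef4, which encodes the cAMP sensor EPAC2 of beta cells, was not analysed here.

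Diacylglycerol, the lipid that recruits RasGRP proteins, is made by phospholipases C and removed by diacylglycerol kinases. Of 8 measured phospholipase C genes, Plcb3 was at least 2.44-fold lower, with signals of 52.9 and, under the floor, 10.0 in its only probe set. Plcb2 had a log2 ratio of 0.64 and Plcb4 one of -0.32, and the list median was -0.16. The measured Plcb4 probe sets ran from -0.56 to 0.78. None of 6 measured diacylglycerol kinase genes reached 2-fold (median -0.13). Dgka, whose product limits RasGRP1 signalling in T lymphocytes, had the ratio farthest from 1, from 64.8 to 34.5 (log2 ratio -0.91). Dgke was at 0.34 and Dgkq at -0.27, and Dgkz had signals of 450.0 and 375.9. The measured Dgke probe sets ran from -0.37 to 0.71. The 10 measured protein kinase C and D genes, other receivers of diacylglycerol, had a median of -0.013 and none at 2-fold. The farthest were Prkce at 0.46, Prkd1 at 0.33 and Prkd2 at -0.33. The measured Prkce probe sets ran from -0.31 to 0.53.

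On the receptor side, the 10 measured SOS adaptor genes had a median of 0.14 and none at 2-fold. Grb2 was at 387.5 and 390.0. Gab1, a docking protein gene, had the ratio farthest from 1 (log2 ratio -0.72), followed by Shc2 (0.47) and the insulin receptor substrate gene Irs2 (0.46). The measured probe sets of Shc2 ran from -0.65 to 0.47 and those of Gab1 from -0.72 to 0.084. Downstream, the 6 measured RAF, MEK and RSK kinase and scaffold genes had a median of 0.077 and none at 2-fold. Map2k1, which encodes MEK1, was at -0.41, Araf at 0.40 and Rps6ka3 at -0.36. The measured Araf probe sets ran from -0.094 to 0.97 and those of Rps6ka3 from -0.46 to 0.33.

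Feedback genes, which dampen Ras and ERK signalling and are in many cases induced by it, were below 0 in 7 of 9 measured genes (median log2 ratio -0.23). Dusp4, an ERK phosphatase gene, was the exception past the limit, at 435.4 and 888.9, 2.04-fold higher. Dusp5 was at -0.51, Spry1 had a bound of -0.48, and Dusp6 was nearly equal at 147.7 and 147.2. The 7 below 0 include Dusp6 and the Spry1 bound, which had only its control signal above the floor (30.2 and 18.4). Of all measured genes, 49.7% were below 0.

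**Figure D3:**
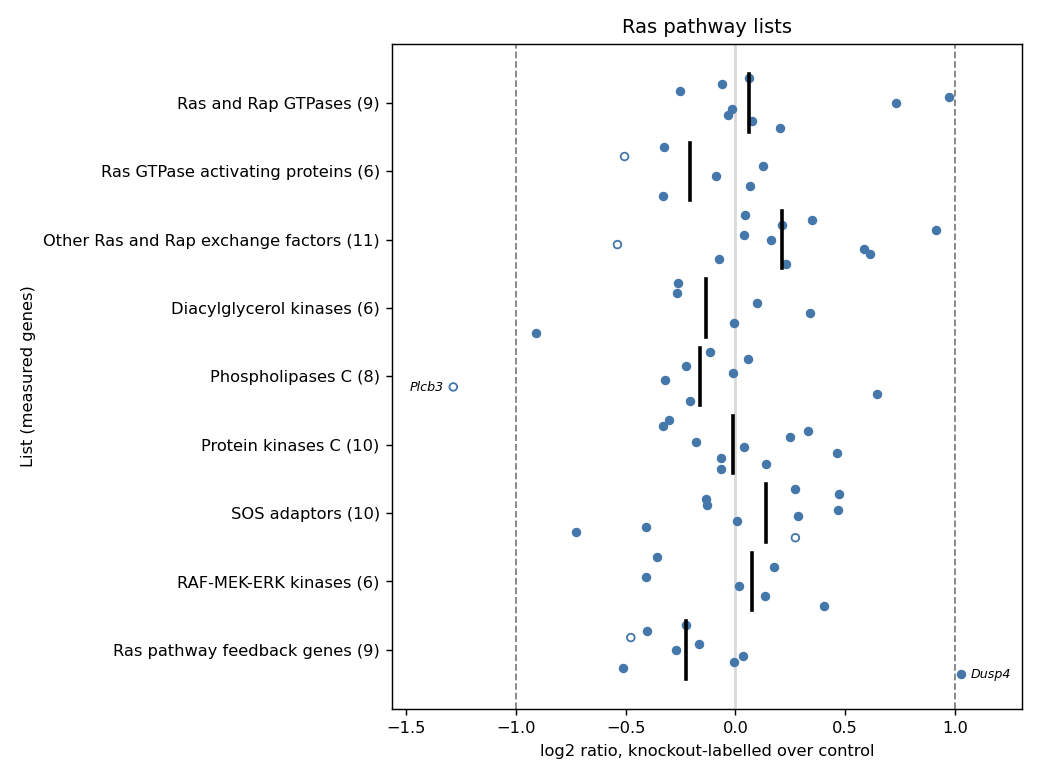
Log2 ratio of knockout-labelled over control signal for each measured gene of the Ras pathway lists, with open circles for bounds (1 array under the floor), a black bar at the list median and dashed lines at 2-fold. Only Plcb3 (-1.29) and Dusp4 (1.03) lie past 2-fold among 75 genes.

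RasGRP genes are best known from blood cells, so markers of the cells that an islet preparation can hold were read on the same arrays. In bulk tissue, fewer cells of a type and less RNA per cell cannot be told apart. The islet label was borne out by Ins2 at 9194.3 and 7785.8 and Gcg at 11214.6 and 10291.5. Zbtb20 itself was lower in 5 of its 9 probe sets and higher in 4, with log2 ratios from -0.87 to 0.54, so these signals did not settle whether the array carries the deletion, and "knockout-labelled" is used for it throughout.

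Of 8 T lymphocyte markers found, 6 were under the floor on both arrays, among them the defining genes Cd3d (2.8 and 2.2), Cd3e (15.8 and 16.4) and Cd3g (20.3 and 2.8). Zap70, at 89.4 and 73.0, and Cd8a, at 33.6 and 54.1, were above the floor in their brightest probe sets. These made up most of the sum of the 8 signals, 177.8 and 174.7. Only 1 of 3 Zap70 probe sets and 1 of 5 Cd8a probe sets had a ratio, the rest being under the floor on both arrays. The part of T lymphocytes in the Rasgrp1 signal was not tested. B lymphocyte markers summed to 108.0 and 107.1 over 5 genes, with Cd79b and Ms4a1 under the floor on both arrays. Mast cell markers summed to 117.2 and 47.8 over 7 genes, with Kit at 40.7 and 23.0 and Cpa3 under the floor at 4.2 and 1.5. Of the 7, 4 were under the floor on the control array and 6 on the knockout-labelled array. The sums thus include signals that may be background. Over the 3 mast cell markers with a ratio the median log2 ratio was -0.37, with 0 at least 2-fold lower. Platelet markers summed to 137.9 and 121.0 over 4 genes, among them Pf4 (63.5 and 69.0) and Itga2b (48.1 and 34.1).

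Macrophage markers lay on the same side as Rasgrp1, as did the 2 measured Schwann cell and neuron markers (median log2 ratio 0.55). Of 10 measured genes, 9 were above 0 and 4 were at least 2-fold higher, with a median log2 ratio of 0.60, and the signals of all 11 found summed to 801.7 and 1287.9. The 4 macrophage genes at least 2-fold higher were Mrc1 (24.5 and 130.8), C1qb (49.1 and 113.9), Tyrobp (45.1 and 94.2) and Fcer1g (at least 2.40-fold higher). Fcer1g, at 20.2 and 51.8, passed the floor only on the knockout-labelled array, so its bound is on the higher side by construction. Another C1qb probe set had a log2 ratio of 0.30. The last, with its control signal under the floor, had a bound of 0.95. C1qa was at 262.2 and 403.7, Csf1r at 139.7 and 159.9, and Lyz2 was nearly equal at 64.0 and 63.6. The measured Csf1r probe sets ran from -0.15 to 1.16 in log2 ratio. The part of macrophages in the Rasgrp1 signal was not tested.

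Acinar cell markers lay on the same side as Rasgrf2. All 4 measured acinar genes were lower and their signals summed to 20696.9 and 11296.3. Cel (2971.6 and 1330.0) and Cpa1 (3361.9 and 1542.7) were past 2-fold, and Ctrb1 (5450.3 and 2834.0) and Cela3b (8913.1 and 5589.6) within it. Other markers below 0 were 2 of 2 measured for alpha cells (median log2 ratio -0.30) and 4 of 5 for beta cells (median -0.24). The same held for 3 of 3 mast cell and 4 of 6 endothelial markers. Delta and PP cell markers were below 0 in 1 of 3 (median 0.016). Of all measured genes, 49.7% were below 0 and 1.44% at least 2-fold lower. The part of acinar cells in the Rasgrf2 signal was not tested. Of the Schwann cell and neuron markers, which bear on RasGRF genes as genes of neurons, 4 were found, with signals that summed to 51.3 and 74.1. S100b (8.2 and 2.9) and Gfap (2.2 and 6.9) were under the floor on both arrays, Sox10 was at 22.1 and 28.6, and Ngfr passed the floor only on the knockout-labelled array (18.8 and 35.7). Endothelial markers had a median of -0.19 over 6 measured genes and summed to 679.0 and 652.2, with Esam at 231.6 and 191.6 and Emcn at 189.6 and 209.3.

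**Figure D4:**
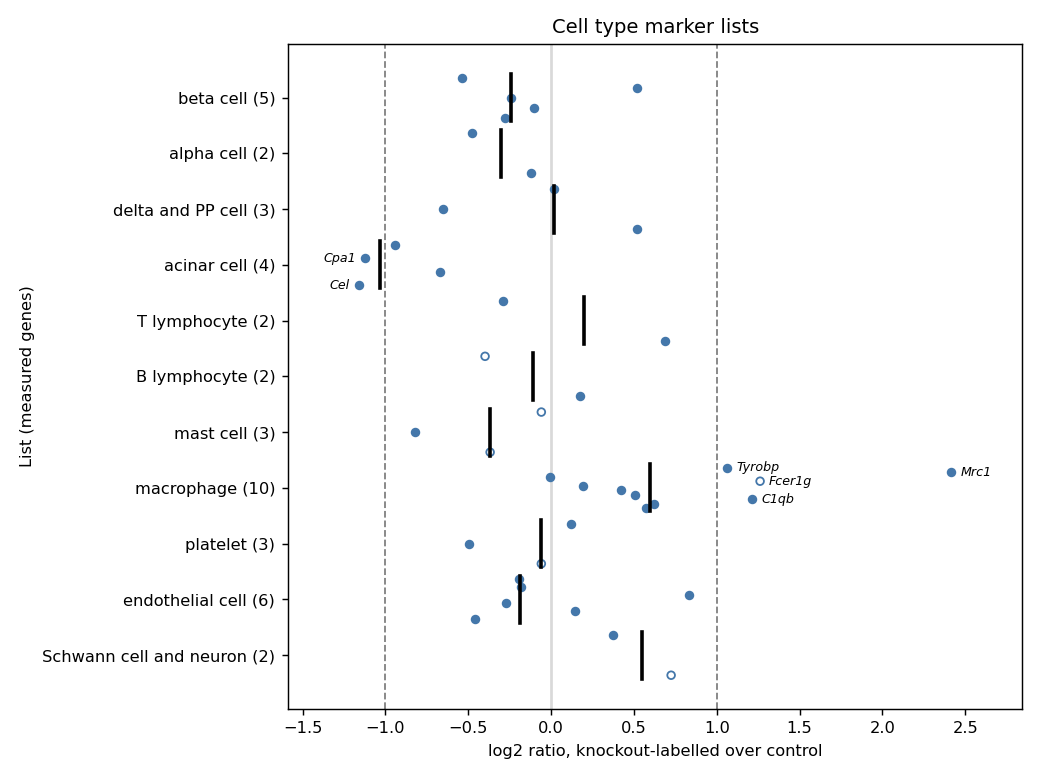
Log2 ratio of knockout-labelled over control signal for each measured marker gene, grouped by cell type, with open circles for bounds, a black bar at the median and dashed lines at 2-fold. Of 10 macrophage markers 9 lie above 0, all 4 acinar markers lie below it, and 2 T lymphocyte markers were measured. The 2 alpha cell and 3 mast cell markers also lie below 0, and the 2 Schwann cell and neuron markers above it.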

How the data were processed

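The deposited values are linear intensities per probe set, 1 array per group, made with MAS5 per the submitters' processing notes. Detection calls and the MAS5 version, scaling target and background step are not given in the sources used here. No further normalization was applied. Intensities ran from 0.1 to 15324.3, and trimmed means (2% at each end) were 99.3 on both arrays. In the platform annotation, 34945 probe sets had 1 gene, 932 had several and 9160 had none, and 34741 of the first matched RefSeq (GRCm38.p6) by Entrez identifier. Only probe sets with 1 gene were named, and the probe set with the highest mean log2 signal stood for its gene. The floor was the 50th percentile of each array, and 2-fold the limit for a count.

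The members and lists were chosen with earlier results of these data known. Genes named are all members, Zbtb20, up to 3 per pathway list by size of ratio or per marker list by signal, all at 2-fold, and the 5 nearest to Rasgrp1 in log2 ratio. Others (Nras, Rap1b, Nf1, Dgkz, Grb2, Dusp6, weak markers, neighbouring genes and genes with all probe sets past 2-fold) were added after their values were seen. The calculation was tested on simulated data. Python 3.11.15, pandas 2.3.3 and statsmodels 0.14.6 were used. Alternatives were other floors, a pseudocount of 16, other scalings, other summaries of probe sets and other fold limits. The number of arrays limits the precision.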

Additional observations from a re-analysis of the deposited data

How the results depend on the processing

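No paired analysis was possible because each group had 1 array, and leaving out an array was likewise impossible. A value counted as moved when it shifted by more than the median SD among probe sets (0.21). The log2 ratio of Rasgrp1, 2.64, was 2.40 with no floor and a pseudocount of 16, 2.23 with the mean and 2.29 with the median over its probe sets, and at least 2.61 under the other scalings. Rasgrf2 was at -0.90 with the mean and with the median over its probe sets, so that 0 members were at least 2-fold lower, as at a limit of 3-fold. Rasgrf1 was at 0.50 with the mean over probe sets.

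A floor at the 30th percentile gave 695 higher and 643 lower genes among all, and 2 pathway genes were higher (Dusp4 and Rasal1) and 2 lower (Plcb3 and Rasa3). At the 70th percentile these numbers were 96, 64, 1 and 0. With the pseudocount, 2 pathway genes were higher (Dusp4 and Rasal1). At a limit of 1.5-fold, 815 genes were higher and 733 lower, and 7 pathway genes were higher (Dusp4, Rap2b, Rasgef1b, Rap2a, Plcb2, Rapgef1 and Rapgef2) and 3 lower (Plcb3, Dgka and Gab1). At 3-fold the numbers were 51, 17, 0 and 0. No value changed sign among those past 2-fold. Of the other comparisons of single values and list medians, 209 shifted by less than that SD and 9 by more. Of 20 list medians, 8 changed sign under at least 1 setting, among them SOS adaptors (0.14 to -0.061), diacylglycerol kinases (-0.13 to 0.046) and T lymphocyte markers (0.20 to -0.29) at the 70th percentile, and phospholipases C (-0.16 to 0.021) and B lymphocyte markers (-0.11 to 0.13) at the 30th. The mast cell median went from -0.37 to -1.11 at the 30th. The cause of these shifts was not tested, except that floors and limits change which genes can be counted.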

Other observations

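The genes next to Rasgrp1 and Rasgrf2 in the RefSeq gene order did not show ratios of the same size. Of the protein-coding neighbours of Rasgrp1, Fam98b had a control signal of 437.8 and a knockout-labelled one of 531.8, with Spred1, a Ras pathway inhibitor gene, at 54.9 and 56.2, and Thbs1, which encodes the matrix protein thrombospondin-1, at 144.1 and 134.8. Fsip1 was at 3.3 and 21.9, at the floor. Of the neighbours of Rasgrf2, the mismatch repair gene Msh3 was higher, at 36.7 and 66.7 (1.82-fold), and Zcchc9 was at 296.4 and 338.1. The mitochondrial creatine kinase gene Ckmt2 was under the floor on both arrays.

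Among 10463 other genes above the floor on both arrays, those with a log2 ratio nearest to that of Rasgrp1 were the trypsinogen gene Prss3 (2.57), the prostaglandin E receptor gene Ptger4 (2.52), the mannose receptor gene Mrc1 (2.42), Cdc14a (2.36) and the cytokine receptor subunit gene Csf2rb (2.93). The likeness is the difference in log2 ratio over 2 arrays only. The control signals of Mrc1 and Cdc14a, 24.5 and 21.9, were next to the floor of 21.6, so their ratios and their place in this order are uncertain. Mrc1 is also among the macrophage markers.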
